A study of Homo sapiens with 6 samples.

Results

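A set of 37 genes that give epithelial cells their junctions and identity was followed in MDA-MB-231 cells made resistant to an mTOR inhibitor. They were taken by symbol from the deposited count table, which lists 69292 gene IDs, and all 37 symbols had a row. MDA-MB-231 is a human triple-negative breast cancer line, and the labels call its cells mesenchymal stem-like. The table holds 6 libraries in 3 groups of 2: DRRIDA, the ridaforolimus-resistant cells, grown with 30 µM ridaforolimus; DREVE, the everolimus-resistant cells, grown with 20 µM everolimus; and WT, the parental cells. Both drugs are rapamycin analogs that inhibit mTOR; everolimus carries a hydroxyethyl group and ridaforolimus a dimethylphosphinate group on the same hydroxyl of rapamycin. The protocol gives the parental cells no drug, while 1 label field gives them DMSO as treatment. Each derivative is a single line that spent months in its drug, so acquired resistance, the drug itself and drift of the line in culture cannot be told apart. The doses of the 2 drugs also differ. Nothing in the labels says that the 2 libraries of a group came from separate cultures, so p-values measure only the spread between these libraries, which may be technical.

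Epithelial cells are held in sheets by tight junctions, adherens junctions and desmosomes. Claudins and occludin form the tight junction strands, the ZO proteins (TJP genes) and cingulin tie them to the actin cytoskeleton, and desmosomes anchor keratin filaments. In breast cancer cells of mesenchymal type many of these genes are low, and repressors such as ZEB1 and Snail bind E-boxes in several of their promoters. The genes are given below by role: adhesion molecules, tight junctions, keratins, surface proteases and their inhibitors, desmosomes, trafficking and lipid genes, and transcription factors.

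Promoter sequence was at hand for 19 of the 37 genes, as RefSeq windows of the 250 bases before a transcript start (build GRCh38.p14). Each window was searched on both strands for CAGGTG, the E-box letters that ZEB and Snail factors bind. Of these 19 genes 11 (57.9%) held it in a window, against 20.6% of the 27305 genes in the same table; by window it was 12 of 33 (36.4%), against 17.5% of 35116. The genes with a match were AP1M2, CDS1, CLDN7, DSP, ELF3, JUP, OCLN, RAB25, SPINT1, TJP1 and TJP3. CGN, CLDN1, CLDN3, CLDN4, EHF, GATA3, KRT8 and MARVELD2 had a window but no match. For CGN, CLDN4, EHF and KRT8 every window lies inside the gene as annotated in GENCODE 29, and sequence outside the windows was not searched. A match of these letters is a description of the sequence, and no binding was measured. Windows of 4 of the 19 genes, picked as examples, are printed 5′ to 3′ on the strand of the gene, with CAGGTG or its reverse complement CACCTG in capitals. They are CLDN7 (its second window, chr17:7262479-7262728, minus strand), SPINT1 (its second window, chr15:40844227-40844476, plus strand), CDS1 (chr4:84582877-84583126, plus strand) and CLDN1 (chr3:190322447-190322696, minus strand).
CLDN7: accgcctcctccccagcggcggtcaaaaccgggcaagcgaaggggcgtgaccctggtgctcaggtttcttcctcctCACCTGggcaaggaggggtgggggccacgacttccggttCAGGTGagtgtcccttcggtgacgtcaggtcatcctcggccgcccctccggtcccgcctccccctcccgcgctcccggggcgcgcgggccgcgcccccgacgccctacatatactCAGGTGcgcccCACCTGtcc
SPINT1: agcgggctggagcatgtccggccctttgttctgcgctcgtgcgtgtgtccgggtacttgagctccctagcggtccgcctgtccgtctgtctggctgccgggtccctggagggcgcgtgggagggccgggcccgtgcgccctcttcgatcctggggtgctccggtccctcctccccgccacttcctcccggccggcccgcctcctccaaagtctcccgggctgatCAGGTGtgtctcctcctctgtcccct
CDS1: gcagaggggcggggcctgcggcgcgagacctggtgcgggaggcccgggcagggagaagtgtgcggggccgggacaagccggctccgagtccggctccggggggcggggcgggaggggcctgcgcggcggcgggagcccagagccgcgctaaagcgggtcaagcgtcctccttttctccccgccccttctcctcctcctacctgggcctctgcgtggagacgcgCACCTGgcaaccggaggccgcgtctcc
CLDN1: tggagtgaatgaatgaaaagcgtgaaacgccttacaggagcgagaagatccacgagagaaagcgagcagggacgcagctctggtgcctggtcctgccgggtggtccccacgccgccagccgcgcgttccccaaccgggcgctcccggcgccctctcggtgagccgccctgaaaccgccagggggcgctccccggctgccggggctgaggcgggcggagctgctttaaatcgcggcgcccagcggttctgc
The CLDN7 window holds 4 matches, which begin 174, 135, 20 and 9 bases before the start. The SPINT1 window holds 1, at 26 bases, and the CDS1 window 1, at 27 bases. The CLDN1 window holds none, and neither do the other windows of CLDN7 and SPINT1. The printed SPINT1 window lies inside the gene as annotated in GENCODE 29, where SPINT1 begins at 40844018. The first 30 bases after this window were not found in a GENCODE 29 transcript of SPINT1, while those after its other window were. For TJP1 too, the only window with a match had no such transcript.

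In each resistant line, taken on its own, most of the epithelial genes had lower estimates than in WT cells, but none passed the test over all genes. The change was tested with edgeR's quasi-likelihood test on 21223 genes, with a Benjamini-Hochberg adjusted p under 0.05 as the threshold. Among the 37 genes, CDH1, CLDN3, MARVELD3 and RAB25 had too few counts to be tested. In DRRIDA against WT cells 0 of the 33 tested genes were called, against 0.32% of all genes tested (68 genes). In DREVE against WT cells the count was 0 of 33, against 0.00471% (1 gene). At an unadjusted p under 0.05, 12 of 33 (36.4%) were lower and 0 higher in DRRIDA cells, where 7.17% of all genes were lower and 7.35% higher. In DREVE cells 14 of 33 (42.4%) were lower and 1 was higher at that level, where 4.53% of all genes were lower and 4.26% higher. DESeq2, run on the same counts, called 7 of the 33 lower in DRRIDA cells (CLDN1, CLDN7, GATA3, KRT18, MAL2, PKP3 and SPINT1). In DREVE cells it called 5 lower (CDS1, CLDN1, CLDN7, EPCAM and SPINT1). Over all genes it called 1.34% lower in DRRIDA and 0.466% in DREVE. For the 33 genes limma-voom called 0 in both, so calls against WT depended on the tool. Estimates were below 0 for 26 of 33 genes in DRRIDA and 25 of 33 in DREVE, where 48.7% and 47.6% of all genes were. The 2 DRRIDA libraries were both below the 2 WT libraries for 19 of 33 genes (24.3% of all genes), and the 2 DREVE libraries for 20 of 33 (20.5%). The median log2 fold change over the 33 genes was -0.43 in each comparison, against 0.01 and 0.02 over all genes tested. Both comparisons use the same 2 WT libraries, so their fold changes are not independent of each other.

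In single libraries, the median over the 33 genes, on a log2 scale centred for each gene on the 6 libraries, was -0.31 and -0.17 in DRRIDA, -0.17 and -0.34 in DREVE and 0.44 and 0.36 in WT. The 4 resistant libraries were thus below both WT libraries, and the 2 lines overlapped. The individual genes did not all follow. KRT19, JUP, ST14, PRSS8, F11R, CDS1 and CDH3 had DRRIDA estimates above 0, and EVPL, KRT8, KRT80, TJP3, PPL, AP1M2, ST14 and GATA3 had DREVE estimates above 0. When each library was left out in turn, only KRT19 and PRSS8 kept that sign throughout in DRRIDA, and only EVPL and ST14 in DREVE. In bulk RNA, fewer cells with a gene active and less of its RNA per cell cannot be told apart.

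**Figure D1:**
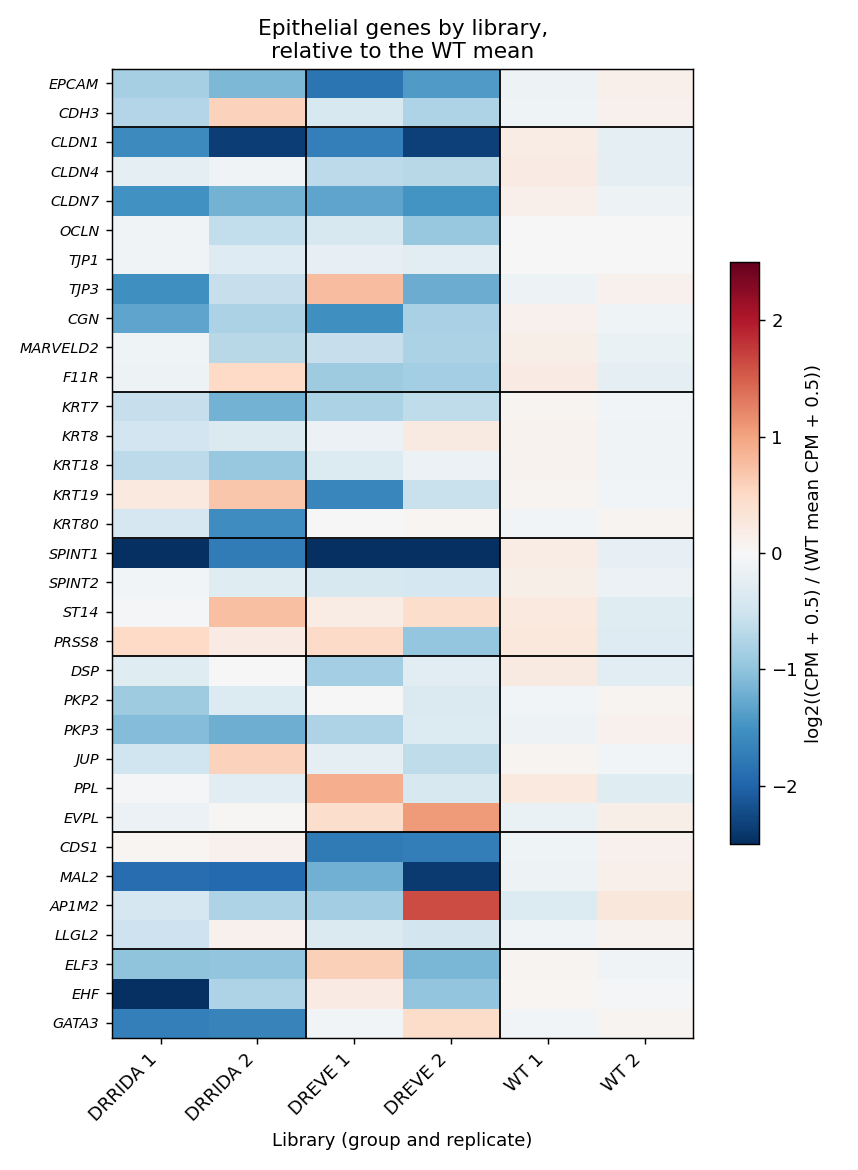
Heat map of the 33 tested genes (rows, grouped by role) in the 6 libraries (columns, DRRIDA left, WT right). Colour is the log2 ratio of CPM + 0.5 to the WT mean + 0.5, with blue below WT, and values past 2.5 in either direction have the end colour; the DRRIDA and DREVE columns are mostly blue, while KRT19 is above WT in DRRIDA and EVPL above WT in DREVE.

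The adhesion molecules were represented by EPCAM and the cadherins. EPCAM, an adhesion protein of epithelial surfaces (chromosome 2, 47345158 to 47387601 on the plus strand of GRCh38), had 2.52 and 1.97 CPM (read counts scaled to the size of each library by TMM) in the DRRIDA libraries, 1.01 and 1.52 CPM in the DREVE libraries and 4.43 and 5.35 CPM in the WT libraries. All 4 resistant libraries were below both WT libraries, and DREVE was below DRRIDA without overlap. Its log2 fold change over WT was -1.12 ± 0.36 in DRRIDA (± SE throughout; 95% interval -1.95 to -0.29, adjusted p = 0.236) and -1.94 ± 0.38 in DREVE (-2.81 to -1.07, adjusted p = 0.244).

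CDH1, which encodes E-cadherin, the adhesion protein of epithelial adherens junctions, was close to the limit of detection in every library. It had 1 and 0 counts in DRRIDA, 2 and 3 in DREVE and 3 and 3 in WT, and a count of 0 allows up to 3 counts. No difference in CDH1 was detectable at this depth. CDH3, the P-cadherin gene, was at 1.70 ± 1.32 CPM in DRRIDA, 0.907 ± 0.254 CPM in DREVE and 1.61 ± 0.219 CPM in WT (SD, n = 2 each), and its groups overlapped between DRRIDA and WT.

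Among the tight junction genes the claudins CLDN1 and CLDN7 and the cytoskeletal linker CGN had the lowest estimates. In DRRIDA 8 of 9 tested tight junction estimates were below 0 (median -0.39), where 48.7% of all genes were. At an unadjusted p under 0.05, 3 were lower, where 7.17% of all genes were. In DREVE it was 8 of 9 (median -0.73) and 7, where 47.6% and 4.53% of all genes were. No gene of the 9 passed over all genes. CLDN1 had 1.22 and 0.511 CPM in DRRIDA, 1.09 and 0.529 CPM in DREVE and 5.42 and 3.94 CPM in WT libraries. All 4 resistant libraries lay well under the WT libraries, and the resistant lines overlapped. The log2 fold change over WT was -2.43 ± 0.52 in DRRIDA (-3.63 to -1.23, adjusted p = 0.11) and -2.53 ± 0.52 in DREVE (-3.73 to -1.33, adjusted p = 0.27).

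CLDN7, a claudin of the lateral membrane, had 4.50 and 5.84 CPM in DRRIDA, 5.22 and 4.56 CPM in DREVE and 15.1 and 12.5 CPM in WT. The resistant lines overlapped and were below WT, with log2 fold changes of -1.42 ± 0.28 in DRRIDA (-2.06 to -0.77, adjusted p = 0.0914) and -1.5 ± 0.28 in DREVE (-2.14 to -0.85, adjusted p = 0.224). CLDN7 overlaps ELP5 on the opposite strand, which averaged 457 counts against 109 of CLDN7, and the strand setting of the counting is not given in the sources used here, so its level is uncertain. CGN, which encodes cingulin, had 4.04 and 5.99 CPM in DRRIDA, 3.40 and 5.95 CPM in DREVE and 11.6 and 9.93 CPM in WT. Its fold changes over WT on the log2 scale were -1.10 ± 0.36 in DRRIDA (adjusted p = 0.239) and -1.20 ± 0.36 in DREVE (adjusted p = 0.447), with all 4 resistant libraries below WT.

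CLDN4, OCLN, MARVELD2 and F11R, further tight junction genes, stood lower in DREVE at an unadjusted p under 0.05, and their DRRIDA estimates were nearer 0. CLDN4, another claudin, had 51.3 and 57.5 CPM in DRRIDA, 38.4 and 37.7 CPM in DREVE and 70.7 and 51.3 CPM in WT. Its DREVE libraries were below all others, at -0.68 ± 0.21 over WT (adjusted p = 0.471), while DRRIDA stood at -0.17 ± 0.21 (adjusted p = 0.764). OCLN, the occludin gene, had 31.0 and 21.5 CPM in DRRIDA, 24.8 and 16.9 CPM in DREVE and 32.8 and 33.4 CPM in WT, that is -0.33 ± 0.26 (adjusted p = 0.601) and -0.67 ± 0.27 (adjusted p = 0.535) over WT in DRRIDA and DREVE. MARVELD2, which encodes tricellulin of the contacts where 3 cells meet, had 8.69 and 5.63 CPM in DRRIDA, 6.09 and 5.16 CPM in DREVE and 10.4 and 8.31 CPM in WT.

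MARVELD2 overlapped between DRRIDA and WT and was lower without overlap in DREVE (-0.73 ± 0.31, adjusted p = 0.561). F11R, which encodes the junctional adhesion molecule JAM-A, had 17.8 and 27.8 CPM in DRRIDA, 10.4 and 10.7 CPM in DREVE and 22.6 and 16.6 CPM in WT. Its DREVE libraries were below the other 4 (-0.89 ± 0.28 over WT, adjusted p = 0.496), and DRRIDA overlapped WT (0.22 ± 0.28, adjusted p = 0.768). The scaffold gene TJP1 (ZO-1) was at -0.20 ± 0.18 in DRRIDA and -0.24 ± 0.18 in DREVE, and TJP3 (ZO-3) at -1.09 ± 0.68 in DRRIDA and 0.09 ± 0.65 in DREVE, where 1 library had 9.78 CPM and the other 2.05 CPM. CLDN3 had between 4 and 13 counts a library and MARVELD3 at most 5, and neither was tested.

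**Figure D2:**
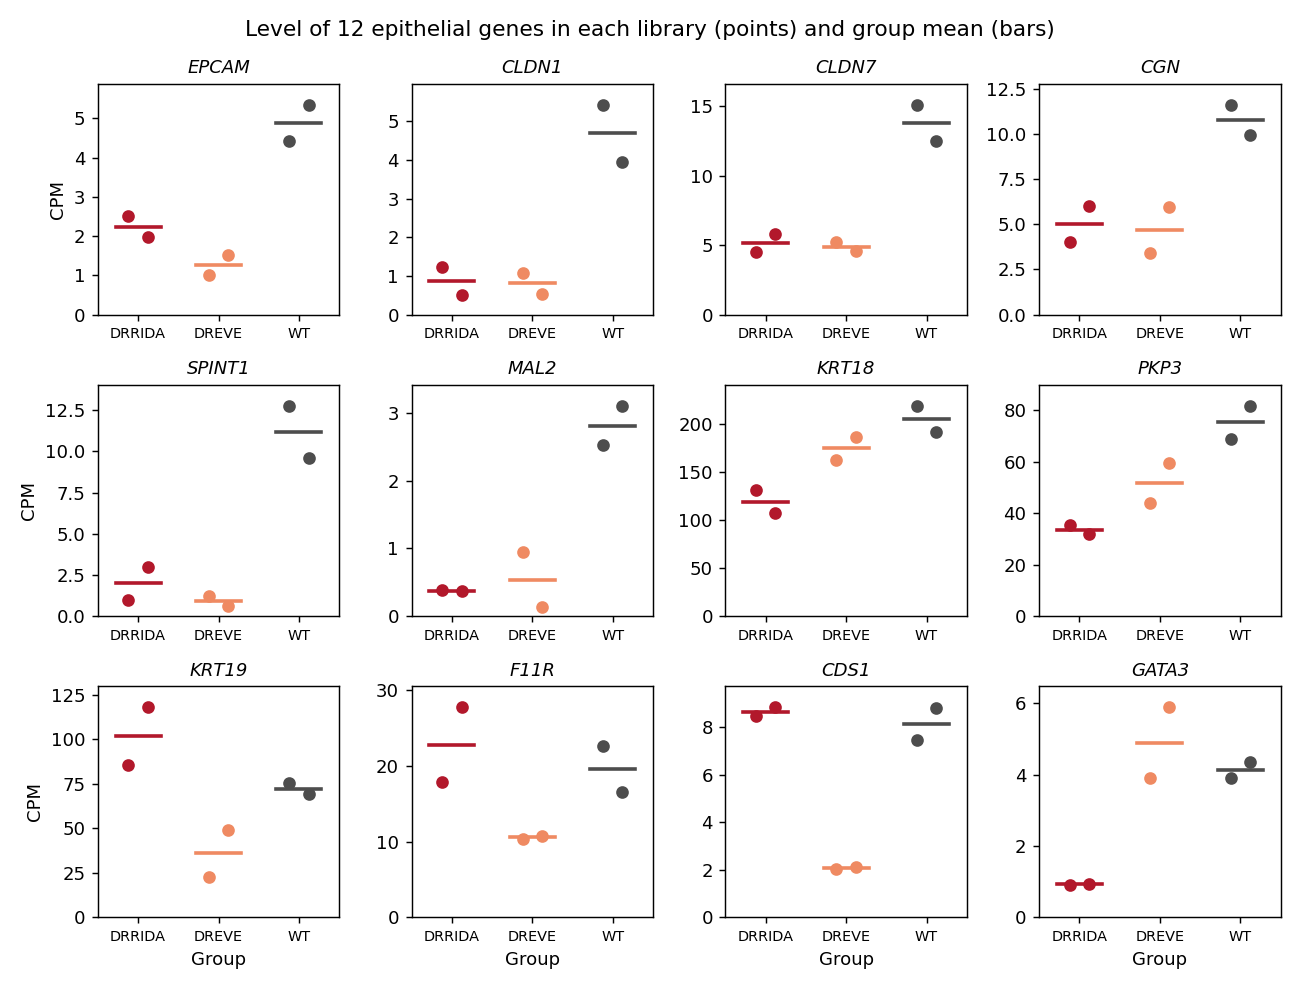
CPM (y axis, from 0 in each panel) of 12 genes in each library (points, 2 a group) with the group mean (bars), DRRIDA left, then DREVE, then WT. EPCAM, CLDN1, CLDN7, CGN, SPINT1, MAL2, KRT18 and PKP3 have all 4 resistant libraries below both WT libraries. Both DRRIDA libraries were below both WT libraries for 24.3% of all genes tested, and both DREVE libraries for 20.5%. The share for all 4 libraries is not reported here. KRT19, F11R and CDS1 are lowest in DREVE, and GATA3 is lowest in DRRIDA.

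Keratins, the intermediate filament proteins of epithelia, made up most of the RNA of the 37 genes. On a per-length scale (TPM, with lengths from GENCODE 29) the 5 keratins took 71.4% and 64.4% of the summed level of the 37 genes in DRRIDA, 70.8% and 71.0% in DREVE and 71.8% and 71.6% in WT. KRT7 was the highest of them, at mean levels of 309 TPM in DRRIDA, 343 TPM in DREVE and 505 TPM in WT. The keratins did not move as 1 group. In DRRIDA 4 of 5 estimates were below 0 and in DREVE 3 of 5, where 48.7% and 47.6% of all genes were. The keratin medians were -0.79 and -0.23, and no keratin of the 5 passed over all genes.

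KRT7, a keratin of simple epithelia, had 531 and 351 CPM in DRRIDA, 457 and 513 CPM in DREVE and 832 and 754 CPM in WT. Both lines were below WT without overlap, at log2 fold changes of -0.85 ± 0.24 in DRRIDA (adjusted p = 0.189) and -0.71 ± 0.24 in DREVE (adjusted p = 0.507). KRT18 had 131 and 107 CPM in DRRIDA, 163 and 187 CPM in DREVE and 219 and 192 CPM in WT, in 3 levels that did not overlap. Its fold change on the log2 scale was -0.79 ± 0.20 in DRRIDA (adjusted p = 0.155) and -0.23 ± 0.20 in DREVE (adjusted p = 0.781). KRT8, which pairs with KRT18 in filaments, had 263 and 285 CPM in DRRIDA, 332 and 428 CPM in DREVE and 391 and 345 CPM in WT.

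KRT8 in DRRIDA was below both WT libraries (-0.43 ± 0.21, adjusted p = 0.383), and DREVE overlapped WT (0.05 ± 0.21, adjusted p = 0.968). The ratio of KRT8 to KRT18 in TPM was 0.935 and 1.24 in DRRIDA, 0.951 and 1.07 in DREVE and 0.835 and 0.839 in WT, so that it was higher in all 4 resistant libraries. These 2 keratin genes overlap each other on opposite strands and have many processed pseudogenes: 51 pseudogene IDs of KRT8 held 3312 counts against 28421 of the gene, and 67 of KRT18 held 2350 against 13864. Their values are therefore uncertain.

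The levels of KRT19 and KRT80 did not overlap between the resistant lines, though neither difference passed over all genes. KRT19, the smallest keratin, had 85.7 and 118 CPM in DRRIDA, 23.0 and 49.2 CPM in DREVE and 75.6 and 69.2 CPM in WT. DRRIDA was above both WT libraries (0.49 ± 0.34 over WT, adjusted p = 0.537) and DREVE below them (-1.0 ± 0.34, adjusted p = 0.507). KRT80 had 201 and 91.8 CPM in DRRIDA, 272 and 280 CPM in DREVE and 256 and 283 CPM in WT. Its DRRIDA libraries were the lowest 2 (-0.88 ± 0.33 over WT, adjusted p = 0.287), though they differed from each other, and DREVE overlapped WT (0.03 ± 0.33, adjusted p = 0.988).

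SPINT1 had the lowest DREVE estimate of the 33 genes. It encodes a Kunitz-type inhibitor of the epithelial surface proteases matriptase (ST14) and prostasin (PRSS8), and lies on chromosome 15 at 40844018 to 40858207 on the plus strand. SPINT1 had 0.991 and 3.0 CPM in DRRIDA, 1.23 and 0.595 CPM in DREVE and 12.8 and 9.58 CPM in WT libraries. The 4 resistant libraries were far below WT and overlapped each other. The log2 fold change over WT was -2.48 ± 0.52 in DRRIDA (-3.67 to -1.28, adjusted p = 0.104) and -3.61 ± 0.56 in DREVE (-4.91 to -2.31, adjusted p = 0.205).

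The proteases that SPINT1 inhibits had low levels that overlapped between all 3 groups. ST14 was at 1.33 ± 0.699 CPM in DRRIDA, 1.24 ± 0.213 CPM in DREVE and 0.890 ± 0.362 CPM in WT, and PRSS8 at 1.76 ± 0.316, 1.18 ± 1.1 and 1.26 ± 0.487 CPM in the same order (SD, n = 2 each). The ratio of SPINT1 to ST14 in TPM was 1.45 and 2.01 in DRRIDA, 1.39 and 0.526 in DREVE and 13.7 and 18.6 in WT, although ST14 rests on few counts. SPINT2, the related inhibitor, had estimates of -0.18 ± 0.19 in DRRIDA and -0.43 ± 0.19 in DREVE (adjusted p = 0.708 and 0.582).

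Among the desmosome and cornified envelope genes, PKP3 had lower levels in both lines than in WT, and EVPL did not. PKP3, a plakophilin that links desmosomal cadherins to desmoplakin, had 35.3 and 31.9 CPM in DRRIDA, 43.8 and 59.6 CPM in DREVE and 68.8 and 81.6 CPM in WT. The 3 groups did not overlap, with log2 fold changes over WT of -1.16 ± 0.22 in DRRIDA (-1.66 to -0.67, adjusted p = 0.0756) and -0.54 ± 0.21 in DREVE (-1.03 to -0.05, adjusted p = 0.531). PKP2, a second plakophilin, had 35.7 and 52.7 CPM in DRRIDA, 67.1 and 51.9 CPM in DREVE and 63.4 and 69.9 CPM in WT. Its DRRIDA estimate was -0.59 ± 0.24 (adjusted p = 0.315), and DREVE overlapped WT (-0.16 ± 0.24, adjusted p = 0.887).

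EVPL, which encodes envoplakin of the cornified envelope, had 54.8 and 62.0 CPM in DRRIDA, 82.4 and 127 CPM in DREVE and 54.2 and 66.8 CPM in WT. Both DREVE libraries were above the other 4 (0.79 ± 0.25 over WT, adjusted p = 0.474), and DRRIDA overlapped WT (-0.05 ± 0.25, adjusted p = 0.952). Desmoplakin (DSP), plakoglobin (JUP) and periplakin (PPL) had estimates between -0.16 and 0.14 in DRRIDA and between -0.54 and 0.41 in DREVE. DSP, the protein that ties desmosomes to keratin, was at mean levels of 52.3 TPM in DRRIDA, 39.2 TPM in DREVE and 51.7 TPM in WT.

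The trafficking and lipid genes held one low in both lines and one low in DREVE. MAL2, a membrane protein of transport to the apical surface, had 0.381 and 0.365 CPM in DRRIDA, 0.942 and 0.132 CPM in DREVE and 2.52 and 3.10 CPM in WT, all resistant libraries below WT. Its log2 fold changes over WT were -2.88 ± 0.71 in DRRIDA (-4.51 to -1.26, adjusted p = 0.148) and -2.40 ± 0.67 in DREVE (-3.93 to -0.86, adjusted p = 0.437), from 5 and 5 counts in DRRIDA, 13 and 2 in DREVE and 33 and 44 in WT. The DREVE estimate was -4.32 without DREVE replicate 1 and -1.58 without DREVE replicate 2.

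CDS1, which encodes a synthase of CDP-diacylglycerol, the precursor of phosphatidylinositol, had 8.46 and 8.84 CPM in DRRIDA, 2.03 and 2.12 CPM in DREVE and 7.49 and 8.80 CPM in WT. The DREVE libraries were far below the other 4, and DRRIDA overlapped WT. Its log2 fold change over WT was 0.09 ± 0.27 in DRRIDA (-0.52 to 0.70, adjusted p = 0.915) and -1.97 ± 0.29 in DREVE (-2.63 to -1.31, adjusted p = 0.205). AP1M2, an adaptor subunit of epithelial basolateral sorting, was at 39.9 CPM in 1 DREVE library and between 6.66 and 15.4 CPM in the other 5. The polarity gene LLGL2 had estimates of -0.17 ± 0.26 in DRRIDA and -0.42 ± 0.26 in DREVE, and RAB25, a GTPase of apical recycling, had at most 4 counts a library.

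All 3 transcription factor genes had DRRIDA estimates below 0, with a median of -1.75, against -0.04 in DREVE. GATA3, a factor of luminal breast epithelium (chromosome 10, 8045378 to 8075203, plus strand), had 0.915 and 0.950 CPM in DRRIDA, 3.91 and 5.88 CPM in DREVE and 3.90 and 4.37 CPM in WT. The DRRIDA libraries were below the other 4, and DREVE overlapped WT. On the log2 scale DRRIDA was at -2.14 ± 0.39 over WT (-3.02 to -1.25, adjusted p = 0.0706) and DREVE at 0.25 ± 0.34 (-0.53 to 1.02, adjusted p = 0.878). The ETS factors ELF3 and EHF stood at -1.23 ± 0.63 and -1.75 ± 0.77 in DRRIDA and at -0.04 ± 0.59 and -0.31 ± 0.71 in DREVE, and none of these passed. ELF3 averaged 34 counts and overlaps the antisense gene ELF3-AS1, which averaged 65.7.

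**Figure D3:**
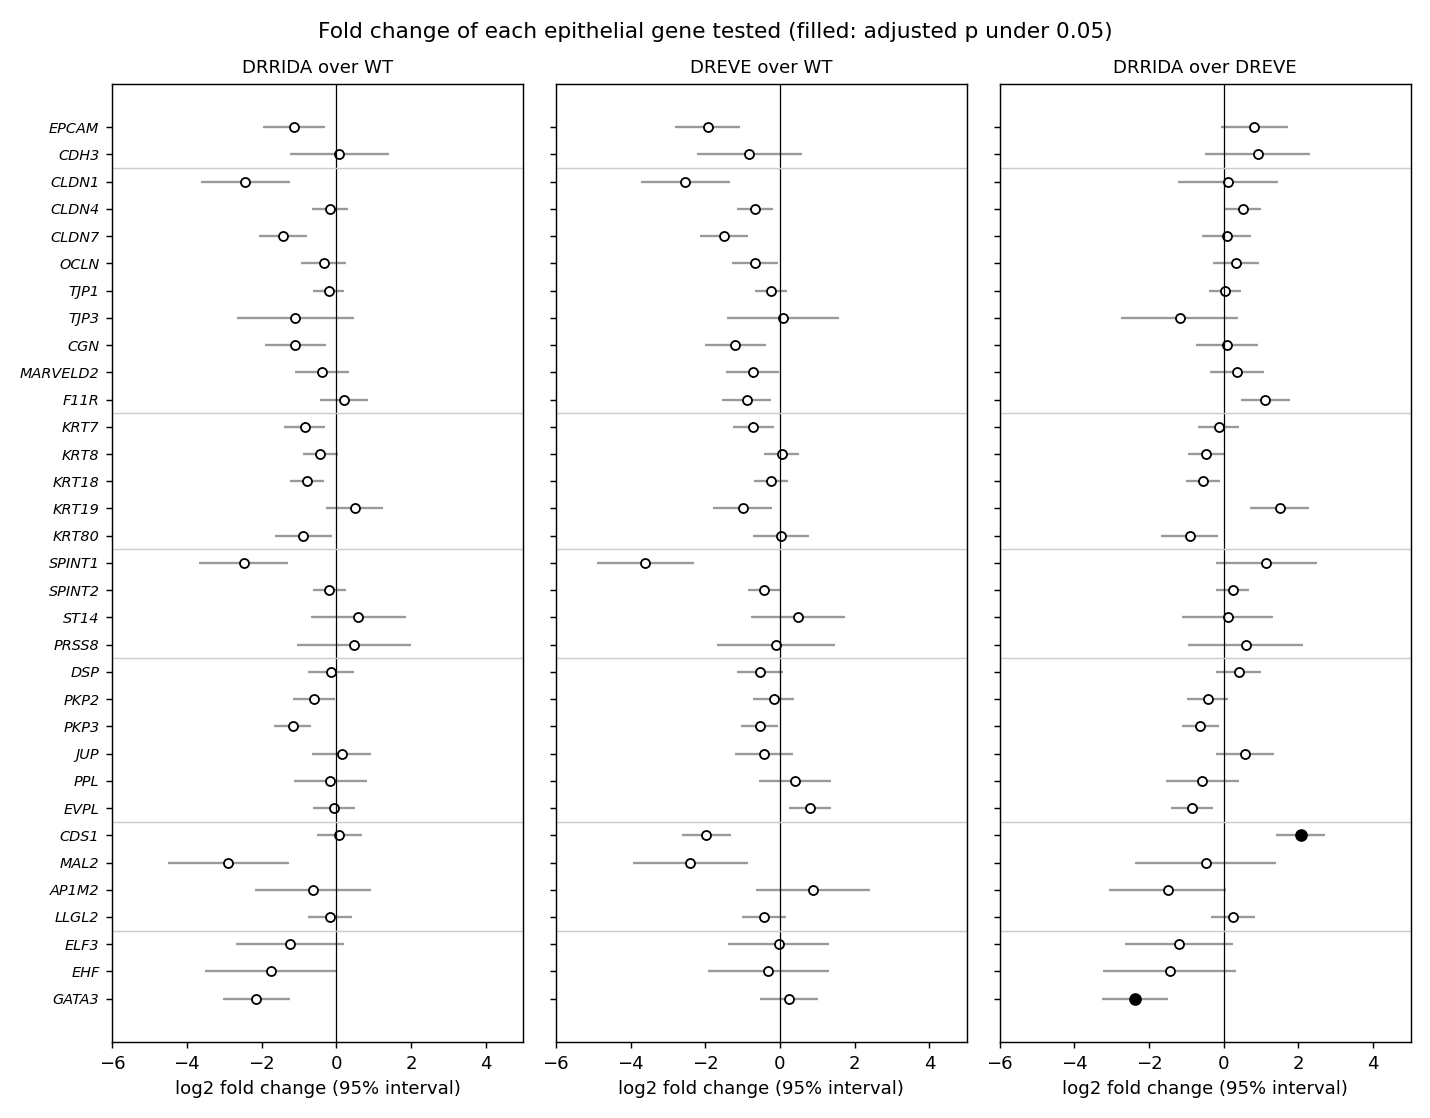
Log2 fold change (point) with its 95% interval (line) of each of the 33 tested genes in DRRIDA over WT, DREVE over WT and DRRIDA over DREVE; filled points have an adjusted p under 0.05. In the first 2 panels most points lie left of 0 and none is filled, and in the third CDS1 (2.06) and GATA3 (-2.38) are filled.

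The 2 resistant lines were then compared with each other, which asks whether epithelial genes differ between the line kept in ridaforolimus and the line kept in everolimus. CDS1 was higher and GATA3 lower in DRRIDA than in DREVE cells, and both passed over all genes. In all, 2 of 33 genes were called, against 0.744% of all genes tested (158 genes). The log2 fold change of DRRIDA over DREVE was 2.06 ± 0.29 for CDS1 (1.39 to 2.72, adjusted p = 0.0286), with 8.65 ± 0.268 CPM in DRRIDA and 2.07 ± 0.0614 CPM in DREVE (SD, n = 2 each). For GATA3 it was -2.38 ± 0.38 (-3.27 to -1.5, adjusted p = 0.0403), with 0.932 ± 0.0248 CPM in DRRIDA and 4.90 ± 1.39 CPM in DREVE. The CDS1 call was lost when any 1 of the 6 libraries was left out (adjusted p between 0.0607 and 0.114), and the GATA3 call was kept only without DREVE replicate 1 (0.0350 to 0.190). The directions did not change.

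At an unadjusted p under 0.05, 4 of 33 genes were higher and 6 lower in DRRIDA than in DREVE cells, where 7.58% of all genes were higher and 6.56% lower. CLDN4 (0.51 ± 0.21), F11R (1.11 ± 0.28) and KRT19 (1.5 ± 0.34) had higher levels in DRRIDA, with adjusted p = 0.327, 0.14 and 0.106. KRT8 (-0.47 ± 0.21), KRT18 (-0.55 ± 0.20), KRT80 (-0.92 ± 0.33), PKP3 (-0.62 ± 0.22) and EVPL (-0.84 ± 0.25) had lower levels in DRRIDA, with adjusted p from 0.179 to 0.352. DESeq2 called CDS1, F11R and KRT19 higher and GATA3 lower, where it called 1.79% of all genes higher and 1.31% lower. The median over the 33 genes was 0.10, against -0.02 over all genes, and 14 of 33 estimates were below 0, where 51.7% of all genes were.

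For the genes with low levels in both lines no difference between the lines passed, but the intervals are wide. DRRIDA over DREVE was 0.10 for CLDN1 (95% interval -1.24 to 1.44), 0.08 for CLDN7 (-0.57 to 0.74), 0.10 for CGN (-0.73 to 0.93), 1.13 for SPINT1 (-0.22 to 2.49), 0.81 for EPCAM (-0.08 to 1.71) and -0.49 for MAL2 (-2.37 to 1.40). These intervals do not show that the lines are alike in these genes.

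The position of the genes in the genome was read beside these values. Neighbours within 1 Mb are given as their median log2 fold change. The 69 tested neighbours of CLDN7 stood at 0.04 in DRRIDA and -0.11 in DREVE, and the 45 of SPINT1 at -0.01 and 0.07, near all genes tested. CDS1 has 5 tested neighbours, of which 4 were below 0 in DREVE over WT (median -0.21), and in DRRIDA over DREVE 0 of the 5 were below 0 (median 0.38). The 4 neighbours of GATA3 had medians of -0.32 in DRRIDA over WT and 0.08 in DRRIDA over DREVE. Whether the neighbourhood has a part in the levels of CDS1 and GATA3 was not tested.

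Junction genes outside the 37 had medians nearer 0. Of 25 tested other tight junction and polarity genes, 5 were higher and 2 lower in DRRIDA over WT at an unadjusted p under 0.05. In DREVE 3 were higher and 3 lower, and the medians over WT were 0.07 in DRRIDA and 0.14 in DREVE. Over all genes tested, 7.35% were higher and 7.17% lower in DRRIDA at that level, and 4.26% and 4.53% in DREVE. Between the lines 2 of the 25 passed over all genes, where 0.744% of all genes tested did. PATJ, a scaffold of the apical Crumbs complex, was higher in DRRIDA than in DREVE (1.38 ± 0.19, adjusted p = 0.0286). PARD6B, a subunit of the apical Par complex, was lower in DRRIDA than in DREVE (-1.45 ± 0.24, adjusted p = 0.0482). PATJ had 59.3 and 62.4 CPM in DRRIDA, 25.5 and 21.3 CPM in DREVE and 39.9 and 39.6 CPM in WT, while PARD6B had 43.6 and 36.4, 132 and 85.9, and 49.0 and 53.6 CPM in the same order. Leaving out 1 library kept the call of PATJ only without DREVE replicate 1 (adjusted p from 0.0438 to 0.109) and that of PARD6B only without DREVE replicate 2 (0.0263 to 0.234). LSR, a lipoprotein receptor of tricellular contacts, had 16.2 and 13.2 CPM in DRRIDA, 23.2 and 19.9 CPM in DREVE and 36.4 and 38.4 CPM in WT (-1.35 ± 0.22 and -0.80 ± 0.21 over WT, adjusted p = 0.0543 and 0.419). CLDN14 was at 2.74 ± 1.5 CPM in DRRIDA, 0.350 ± 0.120 CPM in DREVE and 0.191 ± 0.270 CPM in WT.

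Adherens junction genes other than the cadherins had medians of -0.09 in DRRIDA and -0.18 in DREVE over 10 tested genes. By edgeR 0 passed. At an unadjusted p under 0.05, 1 was lower and 1 higher in DRRIDA, and 2 were lower and 1 higher in DREVE. Over all genes tested, 7.17% were lower and 7.35% higher in DRRIDA at that level, and 4.53% and 4.26% in DREVE. DESeq2 called 0 in DRRIDA and 1 lower in DREVE, where it called 0.466% of all genes lower. NECTIN2, a nectin, was at -0.69 ± 0.20 in DRRIDA (adjusted p = 0.199), NECTIN3 at 0.56 ± 0.19 (adjusted p = 0.25), and in DREVE the nectin partner AFDN was at -0.72 ± 0.21 (adjusted p = 0.447) and CAMSAP3, which anchors microtubules, at -1.72 ± 0.34 (adjusted p = 0.244). The 11 tested other desmosome and hemidesmosome genes had medians of 0.02 in DRRIDA and -0.08 in DREVE. By edgeR 0 passed. At an unadjusted p under 0.05, 1 was lower and 1 higher in DRRIDA and 1 lower in DREVE, beside the same shares over all genes. DESeq2 called 0 in each. The desmosomal cadherin DSG1 stood at -0.76 ± 0.33 and -0.65 ± 0.33, DSC2 at 0.18 ± 0.19 and -0.35 ± 0.19, ITGB4 at -0.86 ± 0.38 and -1.28 ± 0.38 and the hemidesmosome collagen COL17A1 at 0.72 ± 0.30 and 0.33 ± 0.30 in DRRIDA and DREVE.

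The 5 tested keratins outside the 37 genes all had estimates below 0 in both lines, with medians of -1.08 in DRRIDA and -1.09 in DREVE. Over all genes tested, 48.7% and 47.6% of estimates were below 0. By edgeR 0 of the 5 passed. At an unadjusted p under 0.05, 4 were lower in DRRIDA and 3 in DREVE, where 7.17% and 4.53% of all genes were. DESeq2 called 1 lower in DRRIDA and 0 in DREVE, where it called 1.34% and 0.466% of all genes lower. KRT81, a hair-type keratin, had 327 and 170 CPM in DRRIDA, 381 and 284 CPM in DREVE and 694 and 716 CPM in WT (-1.5 ± 0.32 and -1.09 ± 0.31 over WT, adjusted p = 0.104 and 0.439). KRT86 was at -1.08 ± 0.42 and -0.54 ± 0.41, but its sequence is nearly identical to that of KRT81, so reads may be split between them. KRT10 stood at -0.67 ± 0.29 and -0.54 ± 0.29, and KRT15 at -0.32 ± 0.60 and -2.59 ± 0.72. KRT6A, singled out after its values were seen, had 0 counts in both DRRIDA libraries, 0.277 CPM on average in DREVE and 1.74 CPM in WT, which is at least 15.6-fold lower in DRRIDA than in WT with a floor of 3 counts over the 2 libraries.

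Regulators of the epithelial state were read from lists of repressors and activators. Of 6 tested repressors 0 passed by edgeR in either line. At an unadjusted p under 0.05, 1 was higher in DRRIDA and 0 in DREVE, where 7.35% and 4.26% of all genes were. DESeq2 called 1 higher in DRRIDA and 0 in DREVE. Estimates were above 0 for 5 and below 0 for 1 in each line (medians 0.52 and 0.29). Over all genes tested, 48.7% and 47.6% were below 0. ZEB1 had 72.6 and 101 CPM in DRRIDA, 93.8 and 87.3 CPM in DREVE and 74.2 and 61.8 CPM in WT (0.35 ± 0.22 and 0.41 ± 0.22 over WT, adjusted p = 0.496 and 0.631). ZEB2 stood at 0.46 ± 0.31 and 0.63 ± 0.31, SNAI2 at 0.78 ± 0.47 and 0.33 ± 0.47 and FOXC1 at -0.22 ± 0.20 and 0.26 ± 0.20 in DRRIDA and DREVE. SNAI1 was at 0.58 ± 0.39 in DRRIDA and -0.39 ± 0.39 in DREVE. KLF8, a repressor of E-cadherin, had 12.4 and 20.7 CPM in DRRIDA, 5.87 and 5.35 CPM in DREVE and 4.43 and 5.49 CPM in WT. Its estimates over WT were 1.74 ± 0.32 in DRRIDA (adjusted p = 0.0742) and 0.18 ± 0.33 in DREVE, which was not called either.

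Of 12 tested activators, edgeR called 1 higher in DRRIDA than in WT, 0 in DREVE against WT and 2 higher in DRRIDA than in DREVE. Over all genes tested it called 0.32%, 0.00471% and 0.744% in these comparisons. Estimates over WT were below 0 for 6 of 12 in DRRIDA (median 0.02) and 11 of 12 in DREVE (median -0.49). Over all genes they were below 0 for 48.7% and 47.6%. At an unadjusted p under 0.05, 3 were lower and 1 higher in each line. Over all genes, 7.17% were lower and 7.35% higher in DRRIDA at that level, and 4.53% and 4.26% in DREVE. DESeq2 called 2 lower and 1 higher in DRRIDA and 1 lower in DREVE, where it called 1.34% and 0.466% of all genes lower. TP63, the p63 gene of basal epithelial cells, had 16.8 and 16.1 CPM in DRRIDA, 0.362 and 0.595 CPM in DREVE and 0.764 and 0.282 CPM in WT. It was higher in DRRIDA by a log2 fold change of 4.97 ± 0.46 over WT (adjusted p = 0.0109) and 5.07 ± 0.46 over DREVE (adjusted p = 0.0116). The call over WT was lost without WT replicate 1, WT replicate 2 or DRRIDA replicate 2 (adjusted p up to 0.115), and the call over DREVE was lost with only those 2 groups in the fit. ESRP1, a splicing factor of epithelial isoforms, had 12.8 and 11.2 CPM in DRRIDA, 3.26 and 3.64 CPM in DREVE and 9.78 and 7.40 CPM in WT. It was higher in DRRIDA than in DREVE (1.79 ± 0.29, adjusted p = 0.0403), a call that was lost when any 1 of the 6 libraries was left out (0.0820 to 0.117). TFAP2C stood at -0.70 ± 0.24 in DRRIDA and 0.66 ± 0.24 in DREVE over WT, and SPDEF at -2.19 ± 0.46 and -0.72 ± 0.41, with none passing. GRHL2, an activator of CDH1 and claudin genes, had at most 0.145 CPM in any library.

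**Figure D4:**
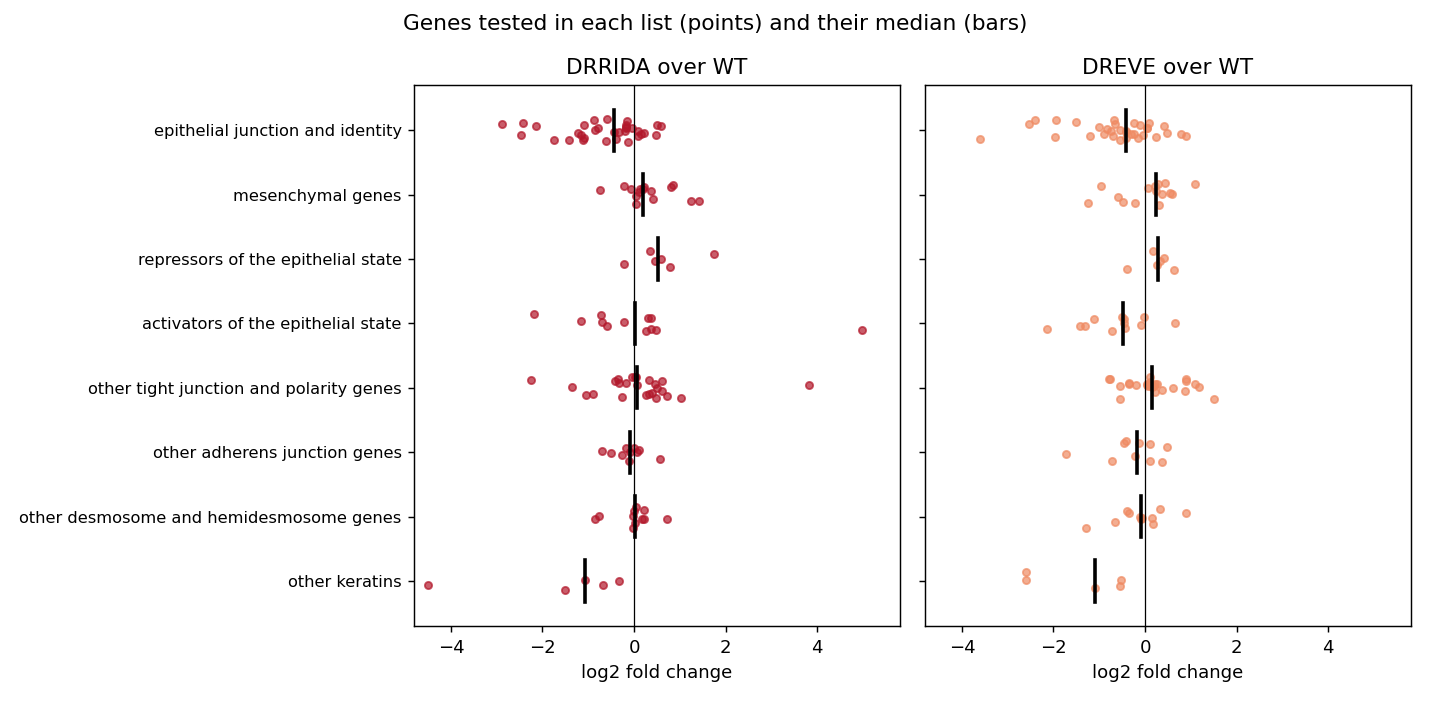
Log2 fold change over WT (x axis) of every tested gene (points) in 8 lists, with the list's median (bars), for DRRIDA (left) and DREVE (right); values under -4.5 are drawn at -4.5, which applies to KRT6A in DRRIDA. The epithelial junction and identity genes have medians of -0.43 in both panels, the other keratins -1.08 and -1.09, and the repressors 0.52 and 0.29.

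The labels were checked against defining genes. VIM, the vimentin gene of mesenchymal cells, had 483 and 646 CPM in DRRIDA, 351 and 585 CPM in DREVE and 302 and 323 CPM in WT (0.85 ± 0.28 and 0.58 ± 0.28 over WT, adjusted p = 0.24 and 0.596). The mesenchymal cadherin CDH2 was near 0, at 0.145 to 0.397 CPM in the 6 libraries, and was not tested. Of 15 tested mesenchymal genes 0 passed in either line (edgeR). At an unadjusted p under 0.05, 3 were higher and 1 lower in DRRIDA, and 0 higher and 2 lower in DREVE. Over all genes tested, 7.35% were higher and 7.17% lower in DRRIDA at that level, and 4.26% and 4.53% in DREVE. DESeq2 called 1 mesenchymal gene higher in DRRIDA and 0 in DREVE, and the medians were 0.19 in DRRIDA and 0.23 in DREVE. CD44, a receptor for hyaluronan, stood at 1.24 ± 0.31 and 0.43 ± 0.31 over WT, ITGA5 at -0.06 ± 0.31 and -0.95 ± 0.31 and TAGLN at -0.74 ± 0.31 and 0.22 ± 0.31. Of the receptor genes that name the tumour class, ESR1 had 0.435 to 0.916 CPM, PGR at most 2 counts and ERBB2 44.3 to 62.9 CPM in the 6 libraries, and EGFR had 405 to 558 CPM.

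Total counts ranged from 13134567 to 15556246 over the 6 libraries, and the libraries of each group differed from each other beyond sampling noise. Of 14 marker genes of other cell types, 5 or 6 were at 0 in each library, and their summed level was 6.01 and 13.2 TPM in DRRIDA, 11.5 and 6.84 TPM in DREVE and 12.3 and 10.7 TPM in WT. Among them PECAM1 was at 0.457 and 5.33 CPM in DRRIDA, 11.1 and 3.64 CPM in DREVE and 11.5 and 7.68 CPM in WT, CD14 had at most 2.14 CPM, MYH11 overlapped between all 3 groups, and COL1A1 was lower in DREVE than in WT (-0.64 ± 0.42, adjusted p = 0.71) and overlapped between the others. Their part in the values of the epithelial genes was not tested.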

How the data were processed

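Polyadenylated RNA of 6 libraries was sequenced with Illumina's TruSeq Stranded mRNA kit, per the labels' protocols. The authors deposited a table of raw counts with Ensembl gene IDs in rows and the 6 libraries in columns; it is not normalised. Per the submitters' processing notes, the tools included STAR 2.7.9a, HTSeq 0.13.5, Trim Galore 0.6.6 and DESeq2, and the build was GRCh38 (hg38). The sources used here do not state the annotation release or the strand setting of the counting, so reads of overlapping and near-identical genes may be misassigned.

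Symbols were matched for 62625 of 69292 IDs, and positions and lengths came from GENCODE 29 (58279 IDs). The main test was the quasi-likelihood test of edgeR 4.0.16 under R 4.3.3 (TMM, filterByExpr by group, glmQLFit and glmQLFTest) in 1 model of the 3 groups with 3 residual degrees of freedom. It was two-sided, with Benjamini-Hochberg adjustment over the 21223 genes tested; an adjusted p given without a tool is from edgeR. CPM were computed on library sizes scaled by TMM. TPM used union exon lengths, which overstate the length of genes with rare long transcripts, so levels between genes are approximate. The code was tested on simulated data. DESeq2 1.42.0, limma 3.58.1 (voom), other normalisations and filters, a fit of only the 2 groups compared, a replicate block and the removal of each library were the alternatives.

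The genes and the lists beside them were chosen with earlier results of these data known. Values per library are given for genes at a mean of at least 1 CPM and an unadjusted p under 0.05 in at least 1 comparison, and for CDH1, EPCAM, KRT8, KRT18 and GATA3. From each other list up to 4 tested genes with the lowest p at a mean of at least 1 CPM are named, with VIM, CDH2, ZEB1, SNAI2, GRHL2, ESRP1 and ESR1 whatever their values. Promoter windows are from RefSeq, and 18 of the 37 genes had none. Counting limits cover counting error only.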

Additional observations from a re-analysis of the deposited data

Results flagged for a closer look

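CDS1 and GATA3 differed between the resistant lines when that difference was itself tested (edgeR's quasi-likelihood test, adjusted over all 21223 genes). CDS1 was higher in DRRIDA than in DREVE cells by a log2 fold change of 2.06 ± 0.29 (adjusted p = 0.0286), higher in both DRRIDA libraries than in both DREVE libraries. Its estimates over WT were 0.09 in DRRIDA and -1.97 in DREVE. GATA3 was lower in DRRIDA than in DREVE cells by -2.38 ± 0.38 (adjusted p = 0.0403), lower in both DRRIDA libraries than in both DREVE libraries. Its estimates over WT were -2.14 in DRRIDA and 0.25 in DREVE, and it rests on 12 and 13 counts in the DRRIDA libraries. Neither call was stable: both were lost with a replicate block (adjusted p = 0.0642 for CDS1 and 0.0775 for GATA3) and with only the 2 groups compared (0.115 and 0.13). Leaving out any 1 of the 6 libraries ended the call of CDS1 (0.0607 to 0.114), and that of GATA3 was kept only without DREVE replicate 1 (0.0350 to 0.190) and lost under limma-voom (0.0676). GATA3 was under the filter of at least 5 CPM in 2 libraries and had no value there.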

How the results depend on the processing

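With 2 libraries a group and 3 residual degrees of freedom, calls depended on the tool and on single libraries. Alternatives were run for 172 pairs of a gene and a comparison: the tested epithelial genes in all 3 comparisons and the other genes whose estimates are given. Of these 2371 alternative values, 2183 kept direction and side of the threshold, 84 newly passed, 46 no longer passed and 58 changed sign. The sign changes fell on 41 pairs, none of them called, with estimates of at most 1.5 in size. Leaving out 1 library in turn, these log2 fold changes ranged in DRRIDA over WT for CDH3 from -1.06 to 0.70, CLDN4 from -0.38 to 0.075, DSP from -0.38 to 0.13, PPL from -0.43 to 0.14, CDS1 from -0.034 to 0.20, ITGA5 from -0.43 to 0.23, KRT15 from -0.64 to 0.070, EVPL from -0.20 to 0.10, LLGL2 from -0.52 to 0.10, F11R from -0.13 to 0.49, ST14 from -0.068 to 1.06 and JUP from -0.51 to 0.58. In DREVE over WT they ranged for TJP3 from -1.43 to 0.81, KRT80 from -0.043 to 0.11, PRSS8 from -1.63 to 0.63, ELF3 from -1.44 to 0.67, SNAI1 from -0.81 to 0.18, KRT8 from -0.16 to 0.22, PPL from -0.41 to 0.93, PKP2 from -0.36 to 0.0025, AP1M2 from -0.93 to 1.66, EHF from -1.17 to 0.23, GATA3 from -0.086 to 0.51, CD44 from -0.043 to 0.79, TAGLN from -0.11 to 0.49 and SNAI2 from -0.62 to 0.89. In DRRIDA over DREVE they ranged for TJP3 from -1.91 to 0.33, CGN from -0.26 to 0.56, ST14 from -0.54 to 0.55, PPL from -1.10 to 0.24, MAL2 from -1.31 to 1.43, ELF3 from -1.91 to 0.20, CLDN1 from -0.64 to 0.69, CLDN7 from -0.10 to 0.26, PRSS8 from -0.15 to 2.11, AP1M2 from -2.29 to 0.30, TJP1 from -0.082 to 0.16, CDH3 from -0.22 to 1.53, KRT7 from -0.47 to 0.15, JUP from -0.068 to 1.02 and LLGL2 from -0.084 to 0.54. Signs also changed with library size only for EVPL in DRRIDA (0.00096) and ELF3 in DREVE (0.047) over WT, with voom for CDH3 in DRRIDA (-0.15) and TJP3 in DREVE (-0.33) over WT and MAL2 in DRRIDA over DREVE (0.071), and with the replicate block for TJP3 in DREVE over WT (-0.011). In DRRIDA over WT (68 genes and 0 epithelial genes called), DESeq2 called 575 and 7, no low count filter 1195 and 10, only the 2 groups compared 127 genes and the replicate block 28 genes. Leaving out 1 library gave 1 to 276 genes and 0 to 4 epithelial genes: GATA3, MAL2 and PKP3 passed without DREVE replicate 1 or 2, and SPINT1 without DREVE replicate 1. The median of the epithelial genes was -0.32 with at least 5 CPM in 2 libraries. In DREVE over WT (1 and 0), DESeq2 called 147 and 5, no filter 493 and 7, and library size only, the 5 CPM filter, only 2 groups and the replicate block 0 genes each. Leaving out 1 library gave 0 to 3 genes, and medians of -0.63 (without DREVE replicate 1) to -0.40. In DRRIDA over DREVE (158 and 2), DESeq2 called 658 and 4, voom 1 epithelial gene (CDS1), no filter 1362 and 7, the 5 CPM filter 81 and 1 (CDS1), only 2 groups 0 and 0, and the replicate block 49 and 0. Leaving out 1 library gave 19 to 123 genes, 0 to 2 epithelial genes and medians of -0.10 (without DRRIDA replicate 2) to 0.25 (without DREVE replicate 1). The cause of these differences was not tested. Deviations from the group means of libraries with the same replicate number correlated over genes at -0.19 (DRRIDA and DREVE), -0.17 (DRRIDA and WT) and 0.33 (DREVE and WT). With 2 libraries a group, these values cannot tell whether libraries with the same number share a batch. The block ended the calls of CDS1 and GATA3 (log2 fold changes 2.06 and -2.37) and those of ESRP1, PATJ and PARD6B. Low counts limit CDH1, CLDN3, MARVELD3 and RAB25, which were not tested, and MAL2, CLDN1, SPINT1 and GATA3, whose intervals are wide.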
